A study of Homo sapiens with 8 samples.

Results

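The expression of 35 genes of cholesterol and fatty acid synthesis was examined in 2 breast epithelial lines, MCF10A and DCIS.COM, after transduction with an empty vector (pLOC-empty) or one that carries *MALINC1* (pLOC-*MALINC1*). The genes were picked by symbol from a table of 13842 genes, and all 35 were found in it. They comprise 7 genes of the mevalonate steps, 11 of the steps from squalene to cholesterol, 5 of sterol sensing, 5 of sterol transport and receptor turnover, and 7 of fatty acid synthesis, elongation and desaturation. With pLOC-*MALINC1*, 21 of the 35 rose in MCF10A, where 21.5% of all genes did, and 5 fell, where 18.1% of all genes did. In DCIS.COM 27 fell (16.7% of all genes) and 0 rose (16.4%). For 26 genes the response was lower in DCIS.COM than in MCF10A by a test of the difference itself, as for 20.3% of all genes.

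MCF10A is an immortalized, non-tumorigenic line of human breast epithelial cells, and DCIS.COM is a line of the MCF10 series that models ductal carcinoma in situ. The study asked what the long non-coding RNA *MALINC1* does in normal and pre-invasive breast cells when it is carried by the lentiviral vector pLOC. Every group was stably transduced, selected with blasticidin and harvested from subconfluent plates, and each of the 4 groups (2 lines, each with pLOC-empty or pLOC-*MALINC1*) had 2 RNA-seq libraries. Both media contained 5% horse serum, a source of lipoprotein cholesterol, while that of MCF10A also held epidermal growth factor, hydrocortisone, insulin and cholera toxin, so the line and its medium cannot be told apart. The labels do not say whether the libraries of a group came from separate cultures, so the p-values measure the spread between these libraries only. They do not name separate transductions either. Within a line, an effect of *MALINC1* therefore cannot be told apart from a difference between the transduced and selected populations. A response below means the difference between the vectors in a line.

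Cells make cholesterol from acetyl-CoA through mevalonate, farnesyl diphosphate, squalene and lanosterol. When sterols in the endoplasmic reticulum are low, the escort protein SCAP carries the SREBP transcription factors to the Golgi, where proteolysis frees them to switch on most genes of the pathway, and when sterols are high the INSIG proteins hold the complex back. The LXR nuclear receptors act on the other side, since they respond to oxysterols and switch on the efflux transporters *ABCA1* and *ABCG1*, the ubiquitin ligase *MYLIP*, and also *SREBF1* and *SCD*. Fatty acid synthesis shares the SREBP factors and the substrate acetyl-CoA.

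SREBP factors bind sterol regulatory elements, usually beside CCAAT boxes that bind NF-Y, so the promoters of the genes whose responses are described next were searched on both strands for TCACNCCAC and for CCAAT. RefSeq promoters (GRCh38.p14, 250 bases before to 50 bases after the annotated start) matched 30 of the 35 genes. TCACNCCAC was found in 1 of the 30 (3.33%), against 1.07% of the 10704 promoters of tested genes. CCAAT was found in 18 of the 30 (60%), against 37.0% of the promoters of tested genes and 35.7% of all 27305. Both are matches of letters, not measured binding sites, and the letters do not overlap each other. Elements that depart from these letters or lie outside the window are missed, so no match does not mean no element. The promoter with both motifs, that of *SREBF2*, is shown first, from 193 to 65 bases before the start, with the letters of both motifs in capitals. CCAAT of the other strand reads as ATTGG here. The others are those of *STARD4*, *HMGCS1* and *MSMO1*, chosen after the values were seen as the largest opposite responses among promoters with at least 2 CCAAT boxes, again with the boxes in capitals. They lie at chr22:41832912-41833040 (plus strand), chr5:111512631-111512726 (minus), chr5:43313478-43313597 (minus) and chr4:165327454-165327668 (plus).
SREBF2: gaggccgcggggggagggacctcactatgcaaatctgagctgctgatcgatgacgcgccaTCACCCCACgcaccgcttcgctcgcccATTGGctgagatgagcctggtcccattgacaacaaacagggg
STARD4: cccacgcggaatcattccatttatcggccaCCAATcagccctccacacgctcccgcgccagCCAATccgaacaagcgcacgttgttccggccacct
HMGCS1: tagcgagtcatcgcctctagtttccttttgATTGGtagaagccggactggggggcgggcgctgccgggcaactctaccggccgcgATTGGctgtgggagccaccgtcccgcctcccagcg
MSMO1: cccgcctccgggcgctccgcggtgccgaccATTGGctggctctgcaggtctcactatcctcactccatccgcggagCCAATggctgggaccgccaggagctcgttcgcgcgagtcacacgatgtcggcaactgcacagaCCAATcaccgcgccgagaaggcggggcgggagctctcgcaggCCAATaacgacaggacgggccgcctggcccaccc

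Between 20604377 and 37550457 reads were counted on genes per library, and the fewest reads of any of the 35 genes in a library were 23, for *TM7SF2*. Levels are given in CPM, the counts of a gene scaled to the reads of its library, which do not account for transcript length and are therefore compared between libraries and not between genes. *MALINC1* itself had 1 and 1.51 CPM in MCF10A with pLOC-empty and 13.2 and 11.7 with pLOC-*MALINC1*, and 1.35 and 1.15 against 24.5 and 19.2 in DCIS.COM. Epithelial markers were present in both lines (4 of 4), summing to 1962 to 2443 CPM in MCF10A and 3804 to 3967 CPM in DCIS.COM. Within that list *CDH1* went against the sum, at 631 and 632 CPM in MCF10A and 206 and 225 CPM in DCIS.COM with pLOC-empty. The sum of 5 basal markers was 17958 to 18020 CPM in MCF10A with pLOC-empty and 24387 to 24905 CPM with pLOC-*MALINC1*, against 2324 to 2520 CPM in DCIS.COM. Most of it was *KRT17* and *KRT5*. *TP63* went the other way, at 5.24 and 4.60 CPM in MCF10A and 55.8 and 57.4 CPM in DCIS.COM with pLOC-empty. In MCF10A with pLOC-*MALINC1* it had 41.7 and 40.1 CPM. Of other cell types the table held 1 of 3 leukocyte markers (*CD68*, 3.53 to 11.4 CPM), 1 of 3 fibroblast markers (*COL1A1*, 1.51 to 15.9 CPM), 1 of 2 endothelial markers (*PECAM1*, 0.0874 to 7.21 CPM, lowest in DCIS.COM with pLOC-*MALINC1*), 3 of 4 hormone receptor markers (summing to 17.0 to 48.8 CPM) and 0 of 3 adipocyte markers. The small RNAs *RN7SL1* and *RN7SL2* took 8.22% to 15.7% of the reads and fell in DCIS.COM with pLOC-*MALINC1*, with log2 fold changes of -0.67 and -0.79 (limma, adjusted p = 0.00487 and 0.00147). The part of these shifts in the results below was not tested, beyond totals taken without *RN7SL1* and *RN7SL2*.

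The first comparison asked which of the genes responded to pLOC-*MALINC1* in each line. A gene was called at an adjusted p below 0.01 in limma, over all 13842 genes. By this rule 21 rose, 5 fell and 9 were not called in MCF10A. In DCIS.COM, where 27 fell and 0 rose, the 8 that were not called had log2 fold changes of -0.30 to 0.27, and 1 of them, *SCAP*, was higher at an unadjusted limma p below 0.05. The median log2 fold change of the 35 was 0.28 in MCF10A and -0.38 in DCIS.COM, with medians near 0 over all genes. Most changes were small, since only *HMGCS1*, *SQLE* and *STARD4* rose over 2-fold in MCF10A (2.99% of all genes did) and only *ABCG1* and *MYLIP* fell as much (2.51%). In DCIS.COM *HMGCS1*, *STARD4* and *ABCG1* fell over 2-fold (3.08% of all genes) and 0 of the 35 rose over 2-fold (1.44%). Of the 35, 19 rose in MCF10A but fell in DCIS.COM, a pattern of 581 genes (4.2%) in the table, and 11 did so when each line was fitted on its own libraries. Another 2 (*FADS1* and *ABCG1*) fell in both lines (3.97%). None of the 35 rose in both lines (5.42% of all genes) or fell in MCF10A and rose in DCIS.COM (3.61%). The heat map of the 35 genes shows these groups of libraries side by side.

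**Figure D1:**
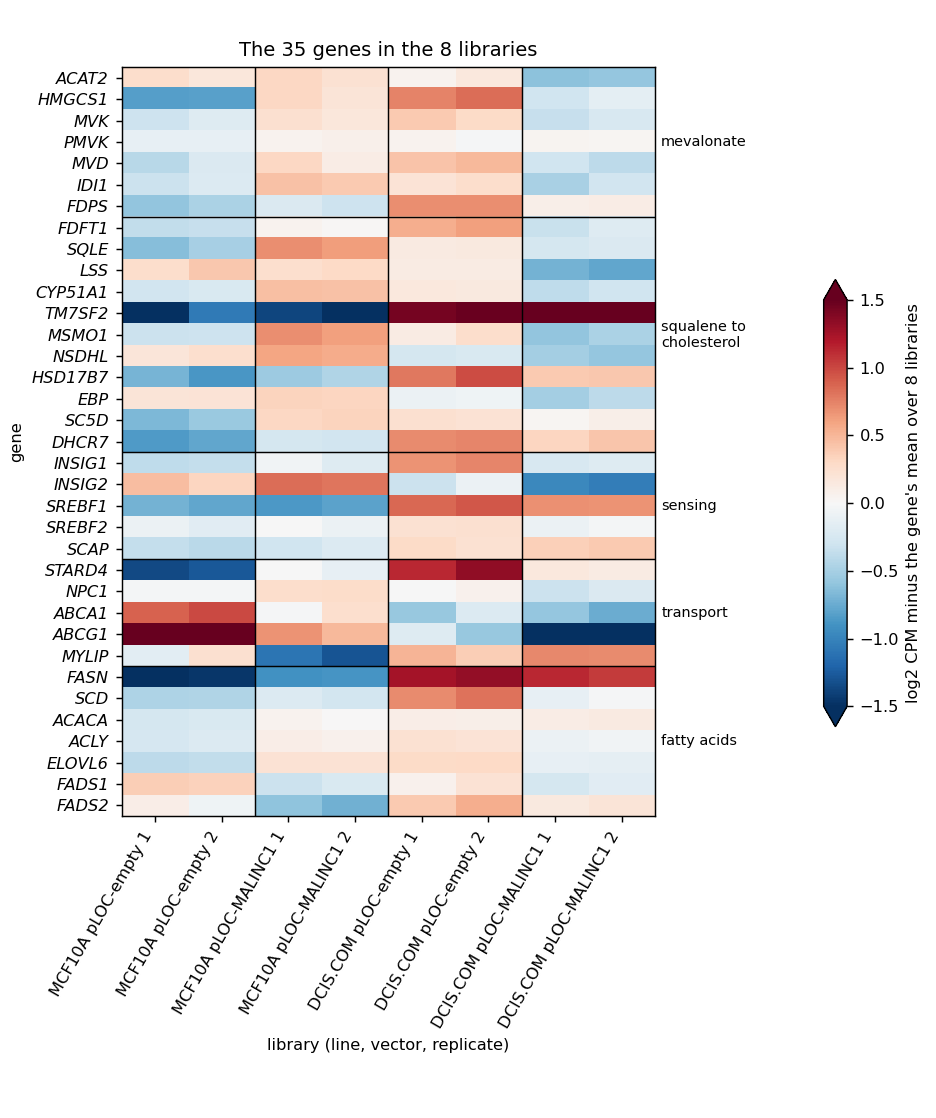
Log2 CPM of each of the 35 genes in each of the 8 libraries, minus the gene's mean over the libraries, with genes ordered by role and values beyond the ends of the colour scale drawn in its end colours. Most genes of the mevalonate and squalene steps are redder with pLOC-*MALINC1* than with pLOC-empty in MCF10A (21 of all 35 genes rose) and bluer in DCIS.COM (27 fell).

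The mevalonate steps begin with *ACAT2*, the cytosolic thiolase that condenses acetyl-CoA, and *HMGCS1*, the synthase that makes HMG-CoA. *HMGCS1* (GRCh37, chromosome 5, 43287572 to 43313614, minus strand) had 35.7 and 36.0 CPM in the MCF10A libraries with pLOC-empty and 78.2 and 72.1 CPM with pLOC-*MALINC1*. In DCIS.COM it went the other way, from 106 and 113 CPM to 51.6 and 57.1 CPM. The groups did not overlap in either line, and the level in MCF10A with pLOC-*MALINC1* lay between the DCIS.COM groups. On the log2 scale, with the standard error after the sign, *HMGCS1* changed by 1.06 ± 0.056 in MCF10A (2.09-fold, limma, adjusted p = 1.92e-08) and by -1.01 ± 0.056 in DCIS.COM (2.01-fold lower, adjusted p = 3.43e-08). *ACAT2* did not follow it in MCF10A, where its libraries overlapped at 32.4 and 30.4 CPM and 33.4 and 31.6 CPM (log2 fold change 0.05 ± 0.061, adjusted p = 0.516). It fell in DCIS.COM, from 28.0 and 30.0 to 17.5 and 18.0 CPM (-0.71 ± 0.061, adjusted p = 1.65e-06). Its exons overlap those of *SOD2* and *TCP1* on the opposite strand by 587 bases together, *SOD2* fell in DCIS.COM as well (-0.79 ± 0.045), and the strand setting of the counting is not given in the sources used here.

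The kinases *MVK* and *PMVK* and the decarboxylase *MVD* turn mevalonate into isopentenyl diphosphate. *MVK* had 23.5 and 25.6 CPM and then 34.5 and 32.8 CPM in MCF10A, and 38.2 and 35.5 CPM and then 22.9 and 24.7 CPM in DCIS.COM, with no overlap between the vectors in either line. *MVD* moved in the same way, from 27.2 and 31.3 to 45.1 and 39.3 CPM in MCF10A and from 49.1 and 51.3 to 29.8 and 27.7 CPM in DCIS.COM. Their log2 fold changes in MCF10A were 0.46 ± 0.065 for *MVK* and 0.53 ± 0.077 for *MVD* (limma, adjusted p = 9.11e-05 and 0.000114), and in DCIS.COM -0.63 ± 0.065 and -0.80 ± 0.077 (adjusted p = 7.85e-06 and 4.05e-06). On the MCF10A libraries alone *MVD* was not called there (limma, adjusted p = 0.0221). *PMVK*, the enzyme between them, was not called in either line, with 24.9 and 24.9 CPM against 28.0 and 28.6 CPM in MCF10A (0.18 ± 0.054, adjusted p = 0.0124) and 28.1 and 26.7 CPM against 27.7 and 27.5 CPM in DCIS.COM (0.01 ± 0.054, adjusted p = 0.899). The MCF10A libraries of *PMVK* did not overlap, but the difference was small. Exons of *MVK* share 225 bases with *MMAB* on the opposite strand, which changed by 0.17 ± 0.066 in MCF10A, not called, and by -0.41 ± 0.066 in DCIS.COM, called.

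The isomerase *IDI1* and the farnesyl diphosphate synthase *FDPS* close this stretch. *IDI1* went from 54.4 and 59.1 CPM to 92.0 and 89.1 CPM in MCF10A (1.60-fold) and from 78.5 and 81.4 CPM to 48.7 and 55.7 CPM in DCIS.COM (1.53-fold lower). *FDPS* rose less in MCF10A, from 94.5 and 103 to 123 and 115 CPM (1.20-fold), and fell from 231 and 230.3 to 152 and 154 CPM in DCIS.COM (1.51-fold lower). For both genes the libraries of the vectors were apart in each line, and all 4 comparisons were called (limma, adjusted p from 4.2e-07 to 0.000263). The call of *FDPS* in MCF10A was lost in a fit without the variance trend (adjusted p = 0.0124) and on the MCF10A libraries alone (adjusted p = 0.026). Of the 7 genes of the mevalonate steps, 5 rose in MCF10A and 0 fell (21.5% and 18.1% of all genes), and 6 fell in DCIS.COM and 0 rose (16.7% and 16.4%), with median log2 fold changes of 0.46 and -0.63. At an unadjusted limma p below 0.05 the counts in the rarer direction were 0 as well.

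*FDFT1*, the squalene synthase, commits farnesyl diphosphate to sterols, and *SQLE*, the squalene epoxidase, carries out a rate-limiting oxidation after it. *SQLE* had 52.0 and 57.3 CPM with pLOC-empty and 131 and 125 CPM with pLOC-*MALINC1* in MCF10A, and 89.0 and 89.6 CPM against 67.5 and 69.8 CPM in DCIS.COM. Its rise in MCF10A was 2.34-fold (log2 fold change 1.23 ± 0.048, limma, adjusted p = 1.35e-09) and its fall in DCIS.COM 1.30-fold (-0.38 ± 0.048, adjusted p = 4.27e-05). *FDFT1*, with the larger estimate in DCIS.COM, had 114 and 116 CPM against 152 and 149 CPM in MCF10A (1.31-fold higher) and 214 and 225 CPM against 116 and 128 CPM in DCIS.COM (1.79-fold lower), both called. *LSS*, which cyclizes squalene epoxide to lanosterol, stayed within the spread of its libraries in MCF10A, at 91.8 and 101 CPM against 91.1 and 94.0 CPM (-0.06 ± 0.048, adjusted p = 0.333). In DCIS.COM *LSS* fell from 83.3 and 83.1 to 46.7 and 44.5 CPM, one of the larger falls of the 35 (-0.87 ± 0.048, adjusted p = 3.34e-08).

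Lanosterol is demethylated by *CYP51A1*, *MSMO1* and *NSDHL*. *MSMO1*, the methylsterol monooxygenase, had 68.0 and 68.9 CPM and 139 and 130.1 CPM with the empty and the *MALINC1* vector in MCF10A, and 92.9 and 102 CPM and 56.4 and 61.5 CPM in DCIS.COM. *CYP51A1*, the lanosterol demethylase, rose from 104 and 108 to 173 and 171 CPM in MCF10A and fell from 140.5 and 139 to 96.9 and 103 CPM in DCIS.COM. The fold changes were 1.96 and 1.63 in MCF10A, and the falls in DCIS.COM were 1.65-fold and 1.40-fold (limma, adjusted p = 3.32e-08 and 2.49e-08 in MCF10A, 4.91e-07 and 7.35e-07 in DCIS.COM). *NSDHL*, the sterol dehydrogenase that follows, changed by 0.35 ± 0.056 in MCF10A (30.4 and 32.1 to 40.3 and 39.3 CPM) and by -0.29 ± 0.056 in DCIS.COM (22.3 and 22.9 to 18.9 and 18.0 CPM). Without DCIS.COM pLOC-empty library 2 or pLOC-*MALINC1* library 2, the change of *NSDHL* in DCIS.COM was -0.28 or -0.26 and was no longer called (limma, adjusted p = 0.0107 and 0.0135). *CYP51A1* exons overlap those of *AKAP9* on the opposite strand by 108 bases, and *AKAP9* moved in the opposite direction in DCIS.COM (0.47 ± 0.057).

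Other steps between lanosterol and cholesterol are catalysed by the reductases *TM7SF2*, *HSD17B7* and *DHCR7*, the isomerase *EBP* and the desaturase *SC5D*. *SC5D* went from 24.2 and 26.1 CPM to 47.7 and 48.5 CPM in MCF10A (1.91-fold, limma, adjusted p = 2.37e-08), and from 45.5 and 44.8 CPM to 39.4 and 40.9 CPM in DCIS.COM, where the libraries did not overlap but the change was not called (-0.17 ± 0.051, adjusted p = 0.0159). *DHCR7*, the last reductase of one branch, went from 39.7 and 41.8 to 59.6 and 58.9 CPM in MCF10A (1.45-fold) and from 117 and 119 to 89.2 and 95.2 CPM in DCIS.COM (1.28-fold lower), both called. *EBP* and *HSD17B7* were called in DCIS.COM only, with log2 fold changes there of -0.37 ± 0.045 and -0.48 ± 0.091 and in MCF10A of 0.13 ± 0.045 and 0.28 ± 0.091. Their levels in DCIS.COM went from 58.5 and 59.8 to 43.8 and 47.6 CPM and from 23.4 and 26.7 to 17.8 and 17.9 CPM. The call of *HSD17B7* was lost without DCIS.COM pLOC-empty library 2 (-0.39) or pLOC-*MALINC1* library 1 (-0.48). The near copy *HSD17B7P2*, with which *HSD17B7* can share reads, had 2.47 and 3.25 CPM against 2.36 and 1.48 CPM in DCIS.COM. It was not called there (-0.58 ± 0.25). *TM7SF2* had few reads in MCF10A, at 0.793 and 1.64 CPM and 1.31 and 1.21 CPM, and was not called in either line (0.13 ± 0.24 and 0.10 ± 0.24, adjusted p = 0.682 and 0.765). Over the 11 genes, 7 rose in MCF10A (21.5% of all genes), 9 fell in DCIS.COM (16.7%) and 0 moved in the other direction in either line, also at an unadjusted limma p below 0.05, with medians of 0.39 and -0.38.

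**Figure D2:**
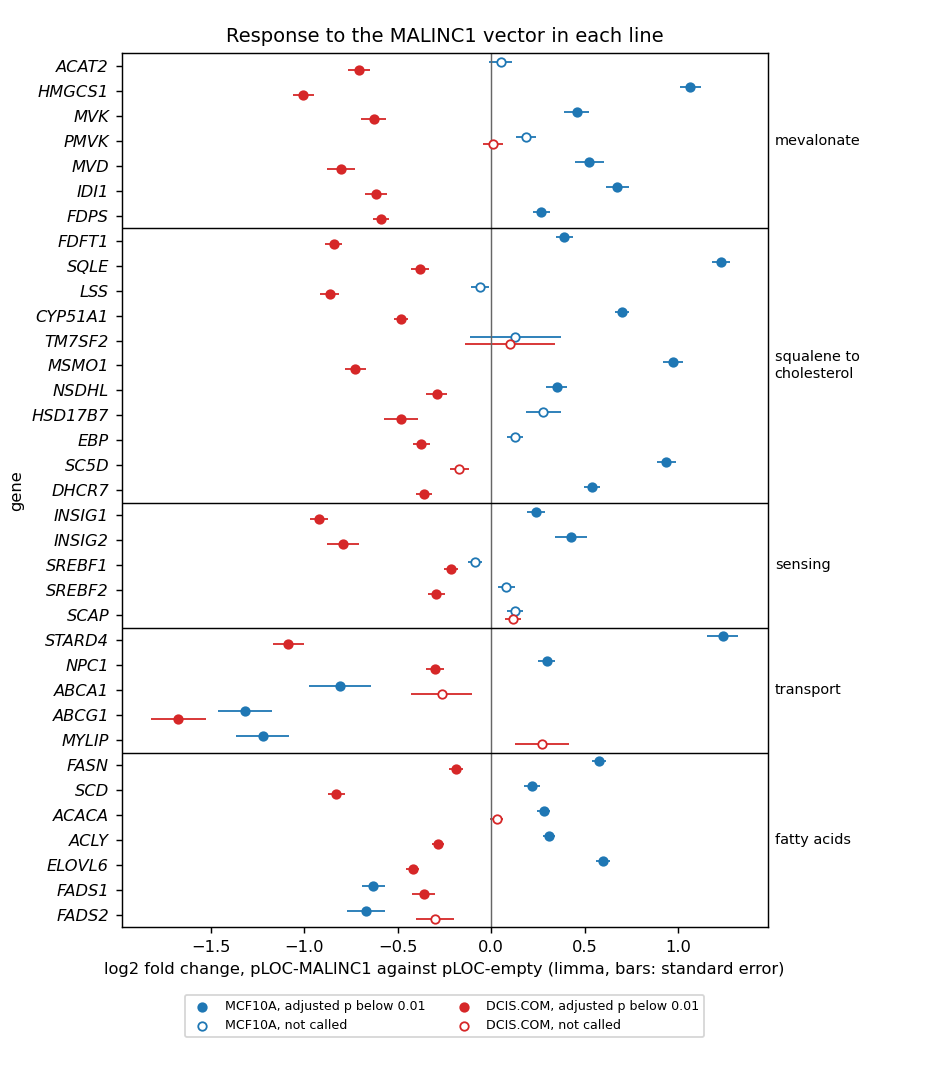
Log2 fold change of each gene between pLOC-*MALINC1* and pLOC-empty (x axis) in MCF10A (blue) and DCIS.COM (red), with the limma standard error as bars and genes ordered by role. Filled points had an adjusted p below 0.01, and 19 genes have a filled blue point to the right of 0 and a filled red point to the left of it.

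*INSIG1* and *INSIG2*, which retain the SCAP and SREBP complex in the endoplasmic reticulum, are the sensing genes with the larger changes. *INSIG1*, itself an SREBP target, had 64.5 and 65.7 CPM against 80.6 and 73.4 CPM in MCF10A, a rise of 1.18-fold (log2 fold change 0.24 ± 0.047, limma, adjusted p = 0.000979). In DCIS.COM it fell from 134 and 139.7 to 71.0 and 73.2 CPM, by 1.89-fold (-0.92 ± 0.047, adjusted p = 1.36e-08). *INSIG2* went from 22.9 and 20.9 to 29.9 and 29.0 CPM in MCF10A (0.43 ± 0.087, adjusted p = 0.00132) and from 13.3 and 15.7 to 8.51 and 8.10 CPM in DCIS.COM (-0.79 ± 0.087, adjusted p = 1.26e-05). The estimates in DCIS.COM were the larger in size. In MCF10A the vector groups did not overlap for either gene, but the calls, unlike the direction, depended on single libraries. The call of *INSIG1* in MCF10A was lost without pLOC-empty library 1 (0.23, limma, adjusted p = 0.0114) or pLOC-*MALINC1* library 1 (0.17, adjusted p = 0.0138), and that of *INSIG2* without pLOC-empty library 2 (0.36, adjusted p = 0.02) or pLOC-*MALINC1* library 1 (0.40, adjusted p = 0.016).

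The genes of the SREBP precursors themselves had small log2 fold changes. *SREBF2*, whose product acts mainly on cholesterol synthesis, had 64.9 and 61.7 CPM against 68.7 and 65.2 CPM in MCF10A, where it was slightly higher in both libraries but not called (0.08 ± 0.044, limma, adjusted p = 0.141). In DCIS.COM it fell from 81.3 and 81.4 to 64.9 and 67.9 CPM (-0.29 ± 0.044, adjusted p = 0.000159). *SREBF1*, the counterpart that acts mainly on fatty acid synthesis, had 141 and 134 CPM against 127 and 132 CPM in MCF10A (-0.09 ± 0.037, adjusted p = 0.0688) and 420.2 and 439.5 CPM against 370.2 and 369 CPM in DCIS.COM (-0.22 ± 0.037, adjusted p = 0.000487). Without DCIS.COM pLOC-empty library 2 the fall of *SREBF1* was -0.18 and was not called (limma, adjusted p = 0.0105), and its exons share 556 bases with *RAI1* on the opposite strand (0.22 ± 0.054 in DCIS.COM). *SCAP* was at 61.3 and 59.3 CPM and 63.7 and 68.1 CPM in MCF10A and at 95.5 and 92.4 CPM and 101 and 103 CPM in DCIS.COM, slightly higher with pLOC-*MALINC1* in each line but not called (0.13 ± 0.043 and 0.12 ± 0.043, adjusted p = 0.0253 and 0.0395).

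Among the transport genes, *STARD4*, a soluble carrier that moves cholesterol between membranes, had with *SQLE* the largest rises of the 35 in MCF10A. It lies on the minus strand of chromosome 5 (GRCh37, 110831731 to 110848288). Its level went from 6.45 and 6.82 CPM to 16.4 and 15.1 CPM in MCF10A and from 36.0 and 41.3 CPM to 18.3 and 17.9 CPM in DCIS.COM, so the lines differed widely with pLOC-empty and came close to each other with pLOC-*MALINC1*. The log2 fold changes were 1.24 ± 0.083 and -1.09 ± 0.083 (limma, adjusted p = 1.44e-07 and 5.43e-07). *STARD4-AS1*, which overlaps it by 124 bases on the opposite strand, stood at 0.474 to 1.20 CPM and was not called in either line. *NPC1*, which exports cholesterol from lysosomes, had 45.4 and 45.1 CPM against 55.4 and 55.7 CPM in MCF10A and 46.0 and 48.2 CPM against 37.0 and 39.6 CPM in DCIS.COM. Its changes were of about the same size and opposite in sign (0.30 ± 0.047 and -0.30 ± 0.047, adjusted p = 0.000231 and 0.000257). The fall in DCIS.COM was not called on the libraries of that line alone (limma, adjusted p = 0.0129). *NPC1* shares 619 exonic bases with *RMC1* on the opposite strand, which had 0.27 ± 0.077 and -0.14 ± 0.077 and was not called.

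The efflux and receptor turnover genes *ABCA1*, *ABCG1* and *MYLIP*, which are LXR targets, fell in MCF10A, where most synthesis genes rose. In DCIS.COM, where most synthesis genes fell, *ABCG1* fell as well and the others were not called. *ABCG1* (GRCh37, chromosome 21, 43619799 to 43717354), which moves cholesterol to high-density lipoprotein, fell in both lines, from 16.5 and 17.5 CPM to 7.22 and 6.35 CPM in MCF10A and from 3.96 and 3.06 CPM to 1.05 and 1.03 CPM in DCIS.COM. The falls were 2.49-fold and 3.19-fold (log2 fold changes -1.32 ± 0.15 and -1.67 ± 0.15, limma, adjusted p = 1.15e-05 and 1.82e-06), with as few as 35 reads in a library. *ABCA1*, the pump that loads lipid-poor apolipoprotein, went from 6.10 and 6.55 to 3.26 and 3.93 CPM in MCF10A (-0.81 ± 0.17, adjusted p = 0.00138), and the call was lost without pLOC-empty library 2 (-0.76, adjusted p = 0.0153) or pLOC-*MALINC1* library 1 (-0.68, adjusted p = 0.0193). In DCIS.COM it stood at 2.24 and 2.86 CPM against 2.21 and 1.98 CPM and was not called (-0.27 ± 0.17, adjusted p = 0.211). *MYLIP*, which marks lipoprotein receptors for degradation, fell in MCF10A from 5.10 and 6.73 to 2.65 and 2.30 CPM (-1.22 ± 0.14, adjusted p = 1.8e-05, or limma adjusted p = 0.0112 on the MCF10A libraries alone, where it was not called). In DCIS.COM *MYLIP* was at 8.07 and 7.35 CPM against 9.38 and 9.25 CPM, higher in both libraries but not called (0.27 ± 0.14, adjusted p = 0.142). In bulk RNA such falls can mean fewer cells that carry a transcript or less of it per cell, which cannot be told apart.

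**Figure D3:**
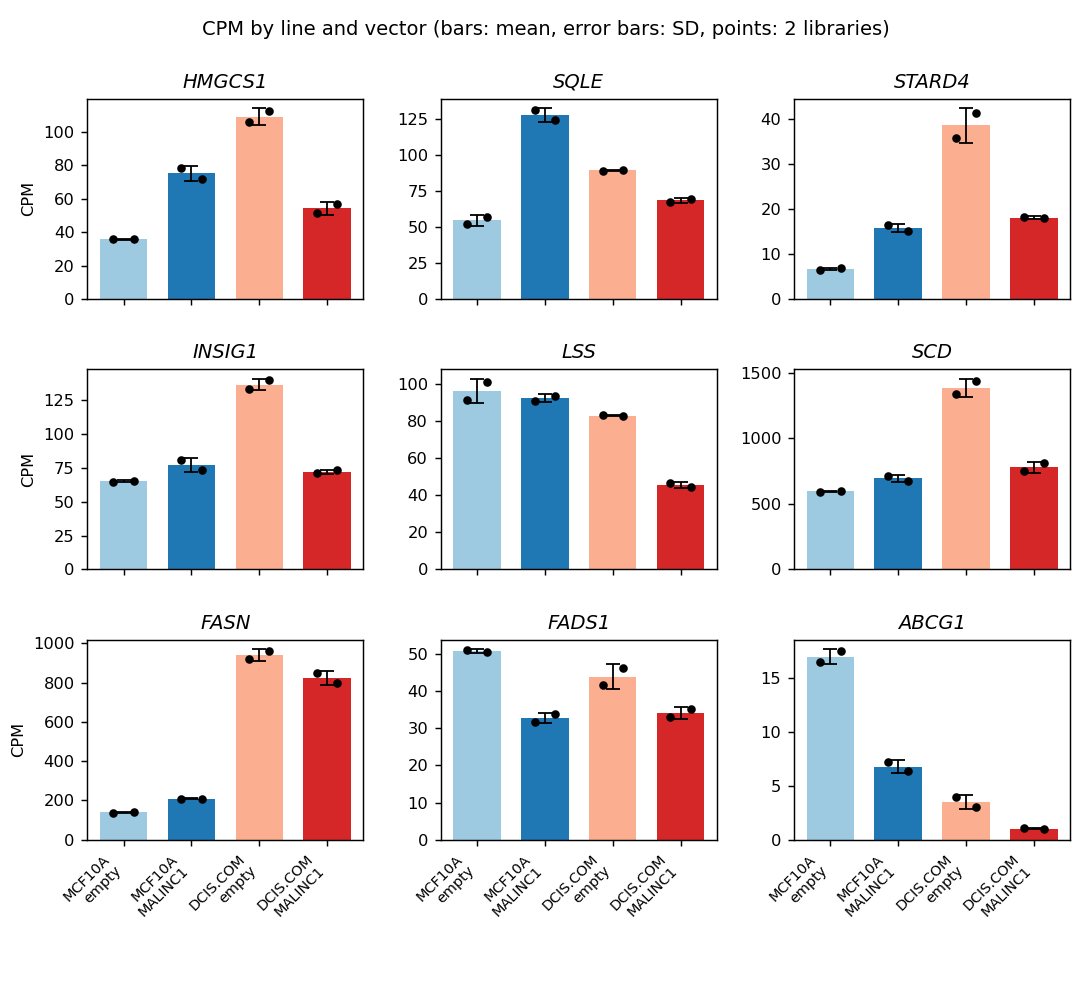
CPM (y axis, from 0) of 9 of the genes in the 4 groups, with bars at the mean, error bars of 1 SD and points for the 2 libraries of a group. *HMGCS1*, *SQLE* and *STARD4* rise in MCF10A and fall in DCIS.COM, *LSS* falls in DCIS.COM alone by the test in each line, and *FADS1* and *ABCG1* fall in both lines.

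Fatty acid synthesis draws on *ACLY*, which makes cytosolic acetyl-CoA from citrate, *ACACA*, the acetyl-CoA carboxylase, and *FASN*, the fatty acid synthase. *FASN* (GRCh37, chromosome 17, 80036214 to 80056170, minus strand) rose in MCF10A from 137 and 141 to 206 and 209.5 CPM (1.49-fold, log2 fold change 0.58 ± 0.037, limma, adjusted p = 1.07e-07). In DCIS.COM it stood far higher, at 921 and 962 CPM with pLOC-empty and 851 and 800.1 CPM with pLOC-*MALINC1*, a difference of -0.19 ± 0.037 (adjusted p = 0.00127). That call depended on the processing, since the change was -0.09 after quantile normalization (adjusted p = 0.119), -0.16 without DCIS.COM pLOC-empty library 2 (adjusted p = 0.0228) and -0.15 without pLOC-*MALINC1* library 2 (adjusted p = 0.0176). *ACLY* went from 266 and 274 to 338 and 331 CPM in MCF10A and from 369 and 362 to 297 and 304 CPM in DCIS.COM (0.31 ± 0.032 and -0.28 ± 0.032, both called). *ACACA* rose in MCF10A from 96.9 and 99.6 to 121 and 117 CPM (0.28 ± 0.035, adjusted p = 2.88e-05) and was not called in DCIS.COM, at 125 and 124 CPM against 126 and 129 CPM (0.03 ± 0.035, adjusted p = 0.529).

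*ELOVL6* lengthens saturated chains and *SCD* makes them monounsaturated. *ELOVL6* had 54.6 and 55.4 CPM against 83.5 and 83.1 CPM in MCF10A and 87.2 and 88.5 CPM against 66.0 and 65.1 CPM in DCIS.COM, a rise of 1.51-fold and a fall of 1.34-fold (limma, adjusted p = 6.22e-08 and 1.58e-06). *SCD* changed little in MCF10A, from 594 and 598 to 711 and 678 CPM (0.22 ± 0.045, adjusted p = 0.0015), and the call was lost without pLOC-empty library 1 or 2 (0.21 and 0.22, adjusted p = 0.014 and 0.0115) or pLOC-*MALINC1* library 1 (0.18, adjusted p = 0.0215). In DCIS.COM *SCD* fell from 1339 and 1435 CPM to 749 and 810.3 CPM, by 1.78-fold (-0.83 ± 0.045, adjusted p = 2.61e-08). The desaturases *FADS1* and *FADS2*, which act on polyunsaturated fatty acids, fell in MCF10A in contrast to the other 5 genes of this group. *FADS1* went from 51.1 and 50.3 to 31.8 and 33.7 CPM in MCF10A and from 41.5 and 46.2 to 32.9 and 35.2 CPM in DCIS.COM (-0.63 ± 0.060 and -0.36 ± 0.060, adjusted p = 2.94e-06 and 0.000348). *FADS2* went from 10.2 and 9.08 to 6.27 and 5.78 CPM in MCF10A (-0.67 ± 0.10, adjusted p = 0.000138), and had 12.5 and 13.9 CPM against 10.5 and 10.9 CPM in DCIS.COM, which was not called (-0.30 ± 0.10, adjusted p = 0.0278). In fits of each line alone, *FADS2* in MCF10A (limma, adjusted p = 0.0124) and *FADS1* in DCIS.COM (adjusted p = 0.0174) were not called, and *FADS1* in DCIS.COM was not called without the variance trend either (adjusted p = 0.0103). The annotated genes overlap on chromosome 11 on opposite strands by 490 exonic bases, so their counts may not be fully independent.

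The second comparison asked whether the responses differed between the lines, as a contrast of the response in DCIS.COM minus that in MCF10A. The difference was negative and called for 26 of the 35 genes, where 20.3% of all genes were, and positive and called for *MYLIP* only, where 15.6% of all genes were. With totals taken without *RN7SL1* and *RN7SL2*, 26 were negative and 2 positive, while the share of positive differences among all genes called went from 43.5% to 55.3%. The largest differences were those of *STARD4* (-2.32 ± 0.12, limma, adjusted p = 1.07e-08), *HMGCS1* (-2.07 ± 0.080, adjusted p = 1.01e-09) and *MSMO1* (-1.70 ± 0.077, adjusted p = 4.32e-09), followed by *SQLE* (-1.61 ± 0.068, adjusted p = 2.25e-09). The responses differed by more than 2-fold with a negative sign in 14 genes (5.22% of all genes) and with a positive sign in *MYLIP* (1.50 ± 0.20, adjusted p = 6.87e-05, 3.98% of all genes). Both responses passed 2-fold in opposite directions for *HMGCS1* and *STARD4*, as for 0.282% of all genes. The median difference was -0.77 over the 35 genes and -0.01 over all genes.

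Among genes called in DCIS.COM only, the difference was called for *ACAT2* (-0.76 ± 0.087, limma, adjusted p = 1.65e-05), *LSS* (-0.81 ± 0.068, adjusted p = 1.27e-06), *HSD17B7* (-0.76 ± 0.13, adjusted p = 0.000391), *EBP* (-0.50 ± 0.063, adjusted p = 3.75e-05) and *SREBF2* (-0.37 ± 0.062, adjusted p = 0.000327), but not for *SREBF1* (-0.13 ± 0.053, adjusted p = 0.0588). Among those called in MCF10A only it was called for *SC5D* (-1.11 ± 0.072, adjusted p = 1.16e-07), *ACACA* (-0.25 ± 0.049, adjusted p = 0.0011, or 0.0176 and not called without the variance trend) and *MYLIP*, but not for *ABCA1* (0.54 ± 0.23, adjusted p = 0.0728) or *FADS2* (0.37 ± 0.14, adjusted p = 0.0472). The falls of *ABCG1* and *FADS1* in both lines did not differ at the threshold either (-0.36 ± 0.21 and 0.27 ± 0.085, adjusted p = 0.173 and 0.0197). For *PMVK*, *TM7SF2* and *SCAP*, called in neither line, the differences were -0.17 ± 0.076, -0.03 ± 0.34 and -0.01 ± 0.061, and with its standard error that of *TM7SF2* allows a sizeable difference in either direction.

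The third comparison set the lines side by side with pLOC-empty, DCIS.COM against MCF10A. Of the 35 genes, 24 were higher in DCIS.COM, where 37.9% of all genes were, and 7 were lower, where 36% were. Over 2-fold, 10 were higher (15.6% of all genes) and 2 lower (13%). The median log2 fold change of the 35 was 0.51 and that of all genes 0.03, and with totals taken without *RN7SL1* and *RN7SL2* these were 0.62 and 0.14. *TM7SF2* (7.76-fold), *FASN* (6.76-fold) and *STARD4* (5.76-fold) had the largest excess in DCIS.COM, and *FASN* had the smallest p of the 35 (log2 fold change 2.76 ± 0.037, limma, adjusted p = 8.31e-15). *TM7SF2* was at 9.23 and 9.50 CPM in DCIS.COM against 0.793 and 1.64 CPM in MCF10A (2.96 ± 0.24, adjusted p = 1.39e-07). *SREBF1* was 3.12-fold, *HSD17B7* 3.16-fold, *HMGCS1* 3.04-fold and *DHCR7* 2.90-fold higher, and *FDPS*, *SCD* and *INSIG1* followed at 2.34-, 2.32- and 2.10-fold.

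The efflux genes were the exceptions with the largest size. *ABCG1* was 4.80-fold lower in DCIS.COM (-2.26 ± 0.15, limma, adjusted p = 1.34e-08) and *ABCA1* 2.46-fold lower (-1.30 ± 0.17, adjusted p = 1.03e-05). *INSIG2* (-0.60 ± 0.087), *NSDHL* (-0.47 ± 0.056) and *EBP* (-0.27 ± 0.045) were lower by less than 2-fold. The small deficits of *LSS* and *FADS1* (-0.21 ± 0.048 and -0.21 ± 0.060, adjusted p = 0.00137 and 0.00569) held under median-of-ratios scaling but not without *RN7SL1* and *RN7SL2* in the totals, where both were -0.11 (limma, adjusted p = 0.0614 and 0.117), nor after quantile normalization (-0.13 and -0.14, adjusted p = 0.0274 and 0.0594). Their calls were also lost when single pLOC-empty libraries were left out. The values for *LSS* were -0.14 without MCF10A library 2, -0.21 without DCIS.COM library 1 and -0.21 without DCIS.COM library 2. Those for *FADS1* were -0.20 and -0.22 without MCF10A library 1 or 2 and -0.14 without DCIS.COM library 1. *FADS2* (0.46 ± 0.10, adjusted p = 0.00109) lost its call without MCF10A library 2 (0.37, adjusted p = 0.0157) or DCIS.COM library 2 (0.38, adjusted p = 0.015). *ACAT2*, *PMVK*, *NPC1* and *MYLIP* were not called, with -0.11 ± 0.061, 0.14 ± 0.054, 0.06 ± 0.047 and 0.39 ± 0.14.

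**Figure D4:**
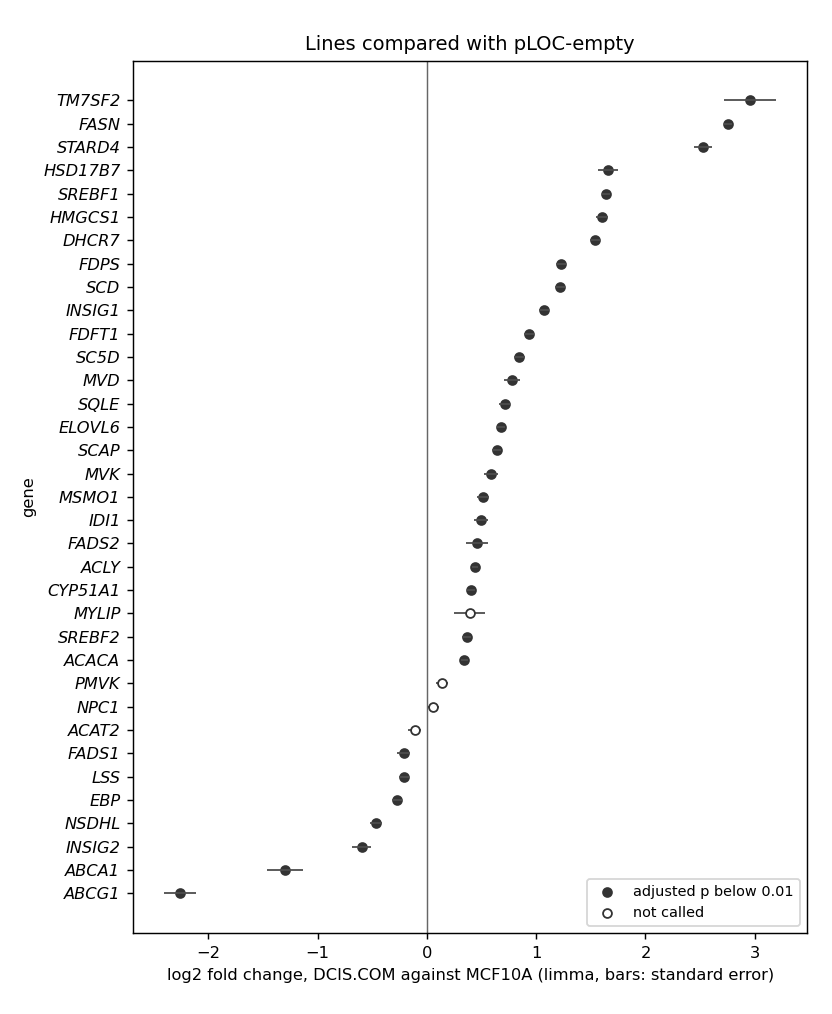
Log2 fold change of each gene between DCIS.COM and MCF10A (x axis), both with pLOC-empty, with the limma standard error as bars and genes ordered by size. The 24 genes called higher in DCIS.COM lie to the right of 0, up to *TM7SF2*, *FASN* and *STARD4*, and *ABCG1* and *ABCA1* lie farthest to the left.

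The comparison of lines shares its pLOC-empty libraries with both vector comparisons, so the levels themselves are given here and not a correlation. For 14 of the 35 genes both DCIS.COM libraries were above both MCF10A libraries with pLOC-empty and below them with pLOC-*MALINC1*, an order found for 5.77% of all genes. *HMGCS1*, *SQLE*, *MSMO1*, *CYP51A1*, *IDI1*, *MVK*, *MVD*, *FDFT1* and *SC5D* were among them, and so were *INSIG1*, *NPC1*, *ACLY*, *ELOVL6* and, with small differences, *PMVK*. *FASN*, *SREBF1*, *SCD*, *DHCR7* and *FDPS* remained higher in DCIS.COM with either vector, for example at 59.6 and 58.9 CPM in MCF10A and 89.2 and 95.2 CPM in DCIS.COM for *DHCR7* with pLOC-*MALINC1*.

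Other genes of these pathways were counted over lists chosen by function, to be read against the 21.5% of all genes that rose and 18.1% that fell in MCF10A, and the 16.4% and 16.7% in DCIS.COM. In MCF10A 4 and in DCIS.COM 3 of 10 other genes of sterol and isoprenoid synthesis rose (40% and 30%), and 2 and 6 fell (20% and 60%). In this list *LBR*, a sterol reductase of the nuclear envelope, rose in MCF10A (0.32 ± 0.033) and fell in DCIS.COM (-0.26 ± 0.033), as most of the sterol synthesis enzymes above did. Other genes of the list rose in both lines or fell in both. Of 10 other genes of sterol sensing, 1 rose and 1 fell in MCF10A (10% each, below the shares of all genes), and 1 rose and 4 fell in DCIS.COM (10% and 40%). *ERLIN2*, a partner of INSIG proteins, rose in DCIS.COM, by 0.31 ± 0.040 on the log2 scale, and was not called in MCF10A (-0.03 ± 0.040). Of 9 measured genes of sterol uptake, transport and esterification (13 listed), 4 rose and 1 fell in MCF10A (44.4% and 11.1%), and 1 rose and 2 fell in DCIS.COM (11.1% and 22.2%). The lipoprotein receptor gene *LRP8* rose in MCF10A from 25.4 and 28.6 to 44.7 and 42.6 CPM and *SOAT1*, which esterifies cholesterol for storage, from 51.5 and 53.0 to 73.6 and 79.1 CPM (log2 fold changes 0.69 ± 0.057 and 0.55 ± 0.049), and neither was called in DCIS.COM (0.03 ± 0.057 and -0.08 ± 0.049).

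Genes of fatty acid and triglyceride synthesis outside the set were split in direction in DCIS.COM, while those of fatty acid oxidation that were called there all fell. Of 24 measured genes of fatty acid and triglyceride synthesis (26 listed), 10 rose and 5 fell in MCF10A (41.7% and 20.8%, against 21.5% and 18.1% of all genes), and 8 rose and 8 fell in DCIS.COM (33.3% each, against 16.4% and 16.7%). *ACSS2*, which makes acetyl-CoA from acetate, fell in DCIS.COM from 53.3 and 58.4 to 28.3 and 26.2 CPM (-1.03 ± 0.070, limma, adjusted p = 1.95e-07) and was not called in MCF10A (0.25 ± 0.070, adjusted p = 0.0109). *FABP5*, a fatty acid carrier, rose in both lines (0.97 ± 0.040 in MCF10A and 0.25 ± 0.040 in DCIS.COM), while *LPIN1*, a phosphatidate phosphatase of triglyceride synthesis, fell in both (-0.72 ± 0.042 and -0.50 ± 0.042). Of 17 genes of fatty acid oxidation, 6 rose and 2 fell in MCF10A (35.3% and 11.8%). In DCIS.COM 0 rose and 11 fell (64.7%, against 16.7% of all genes), and 14 of the 17 had a negative sign (1 was higher at an unadjusted limma p below 0.05). *ANGPTL4*, a secreted lipase inhibitor placed in this list as a PPAR target, went from 21.3 and 26.1 to 81.9 and 76.5 CPM in MCF10A and from 56.2 and 60.9 to 16.9 and 16.3 CPM in DCIS.COM (1.74 ± 0.082 and -1.82 ± 0.082, adjusted p = 6.66e-09 and 5.09e-09). *CPT1A*, which admits fatty acids to mitochondria, rose in MCF10A (1.20 ± 0.042) and *ACADVL*, a dehydrogenase of long chains, did so as well (0.36 ± 0.032), and neither was called in DCIS.COM (0.09 ± 0.042 and 0.06 ± 0.032).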

How the data were processed

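RNA-seq of 8 libraries was used. The authors sequenced ScriptSeq v2 libraries as paired-end reads of 76 nt, mapped them with Rsubread (hg19), assigned them to UCSC known genes by featureCounts and normalized them in edgeR. The deposited values are log2 CPM computed by the authors with a prior count. The strand setting and the tool versions are not given in the sources used here. CPM were taken back as 2 to the power of the deposited log2 value minus 0.0713 CPM, the value of 0 reads, and division by the value of 1 read gave whole reads, within 0.05 of a read, for 100% of the lower values tested. Fold changes are on the deposited log2 scale, which understates changes of genes with few reads. Because the values are on a log2 scale, no count model was fitted.

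The filter on low values required 0.5 CPM in 2 libraries, and all 13842 genes passed it. limma 3.58.1 in R 4.3.3 (lmFit, eBayes with a trend, Benjamini-Hochberg adjustment) fitted a mean for each of the 4 groups, with 4 residual and 7.98 prior degrees of freedom. A call needed an adjusted p below 0.01, and the 2-fold rule of the study's methods is given beside it. The fit was also run on simulated data with the same spread in all groups, which checks the code and not the calls reported here. Python 3.11.15 with pandas 2.3.3, numpy 2.4.6 and, for figures, matplotlib 3.10.9 was used for the rest. Gene positions and exon overlaps are those of GRCh37 with GENCODE annotation, and promoters those of RefSeq on GRCh38.p14.

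The 35 genes and the lists were chosen with earlier results of these data known. All 35 are named, and of each other list the 3 genes with the smallest adjusted p in either vector comparison. Some genes under this rule are not reported here. An older symbol in the lists was read as *ERG28*. The alternatives changed the pseudocount, filter, scaling, variance model, replicate block, libraries in the fit and call rule, and left out each library in turn. Replicates of a group had a Pearson correlation of 0.996 to 0.997 over genes and differed by more than counting noise. The chi-square of their reads per degree of freedom, a measure of this excess, was uneven. It was 3.27 in MCF10A with pLOC-empty and 6.27 with pLOC-*MALINC1*, and 3.76 and 20.4 in DCIS.COM. The fit gave all groups a shared spread for each gene.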

Additional observations from a re-analysis of the deposited data

Results flagged for a closer look

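For 27 of the 35 genes the response to pLOC-*MALINC1* differed between the lines by the contrast of the responses (limma, adjusted p below 0.01), which is why they are listed here with the log2 response in DCIS.COM minus that in MCF10A. In the mevalonate steps the values were -0.76 for *ACAT2*, -2.07 for *HMGCS1*, -1.09 for *MVK*, -1.33 for *MVD*, -1.29 for *IDI1* and -0.86 for *FDPS*. Between squalene and cholesterol they were -1.23 for *FDFT1*, -1.61 for *SQLE*, -0.81 for *LSS*, -1.19 for *CYP51A1*, -1.70 for *MSMO1*, -0.64 for *NSDHL*, -0.76 for *HSD17B7*, -0.50 for *EBP*, -1.11 for *SC5D* and -0.90 for *DHCR7*. The sensing genes *INSIG1*, *INSIG2* and *SREBF2* differed by -1.16, -1.22 and -0.37. Among transport genes *STARD4* differed by -2.32, *NPC1* by -0.60 and *MYLIP*, the only one with a positive sign, by 1.50. In fatty acid synthesis the values were -0.77 for *FASN*, -1.05 for *SCD*, -0.25 for *ACACA*, -0.59 for *ACLY* and -1.02 for *ELOVL6*. Over all genes 35.9% differed by the same rule. Vector and line were crossed in the design, but each line had its own medium, so a difference between the lines cannot be told apart from one between the media. Groups of 2 libraries were too small for a test of single outlying libraries.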

How the results depend on the processing

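With all 8 libraries, 26 genes were called in MCF10A, 27 in DCIS.COM, 27 for the difference and 31 between the lines, and 19 rose in MCF10A but fell in DCIS.COM. Both pseudocounts, a filter of 5 CPM in 2 libraries and median-of-ratios scaling gave the same counts. A fit without a filter was the main fit again, because all genes had passed, and so tested nothing. The replicate block also gave 26, 27, 27, 31 and 19, but the numbers 1 and 2 are shared by name only (correlation of deviations -0.07 in MCF10A and 0.04 in DCIS.COM). No value reversed under any alternative. Requiring over 2-fold left 5, 3, 15 and 12 genes and 2 with opposite responses. Counts fell in a fit without the variance trend, to 22, 24, 26, 29 and 14, and when each comparison was fitted on its own libraries, to 18 in MCF10A, 22 in DCIS.COM and 11 with opposite responses, with 31 between the lines. Without the trend *FDPS*, *INSIG1*, *INSIG2* and *SCD* in MCF10A, *SREBF1*, *FASN* and *FADS1* in DCIS.COM, *ACACA* for the difference, and *LSS* and *FADS1* between the lines lost their calls (limma, adjusted p from 0.0103 to 0.0307). On own libraries *MVD*, *FDPS*, *INSIG1*, *INSIG2*, *SCD*, *FADS2*, *ABCA1* and *MYLIP* in MCF10A and *NSDHL*, *HSD17B7*, *FASN*, *FADS1* and *NPC1* in DCIS.COM did (adjusted p from 0.0102 to 0.0323). Quantile normalization gave 27, 26, 27, 30 and 18, totals without *RN7SL1* and *RN7SL2* 26, 27, 28, 32 and 19, and an adjusted p below 0.05 gave 30, 30, 29, 33 and 22. Leaving out single libraries gave 22 to 26 in MCF10A, 23 to 27 in DCIS.COM, 27 to 28 for the difference, 29 to 30 between the lines and 16 to 19 with opposite responses. In the last of these ranges only calls of the line with the omitted library were taken anew. Those of the other line came from the fit of all 8 libraries. The fit of the difference on its own libraries was the same as the fit of all 8 and was not run again. With 2 libraries a group, no single size of change marked the limit of what was called. In DCIS.COM *FASN* was called at -0.19 on the log2 scale, while *FADS2*, with fewer reads, was not called at -0.30.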
